A study of Drosophila melanogaster with 3 samples.

Results

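The Polycomb group genes examined here were 10 genes of Drosophila melanogaster: ph-p, ph-d, Psc, Su(z)2, Pc, Sce, E(z), pho, Scm and Asx. Binding at them was read from peaks of croc-eGFP, a green fluorescent fusion of the forkhead transcription factor encoded by croc (crocodile). A peak of the conservative list of the series was given to a gene when the nearest protein-coding transcription start site (TSS) was a start of that gene, within 10 kb of the peak's summit. Of the 3650 conservative peaks, 9 were given to members, and of the 10 members 4 had at least 1 peak. The gene group was chosen by the conservative signal of ph-p, one of the strongest in that list, so the signals of its conservative peaks are a description and were not tested.

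All samples came from 1 group, whole embryos aged 0 to 18 h of the croc-GFP strain, which carries a transgenic insertion of the croc-eGFP fusion. Chromatin was sonicated to 200 to 800 bp and immunoprecipitated with an antibody against GFP, and there were 3 biological replicates. The antibody therefore reads the tagged protein, and whole embryos mix all cell types and stages of that window, so a weak peak cannot be told apart from a strong one held in few cells. Control libraries were not analysed here. The strongest peak of a replicate had a signal of 1342.3 in replicate 1, 1206.6 in replicate 2 and 597.9 in replicate 3. The signal is the peak caller's own value and its scale is not stated. It was therefore compared within 1 list at a time, as a rank or as a percentile, the percent of the peaks of that list with a signal no higher.

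Polycomb group proteins keep developmental genes silent through cell division. Polycomb repressive complex 1 (PRC1) binds chromatin and marks histone H2A with ubiquitin, whereas Polycomb repressive complex 2 (PRC2) methylates histone H3 at a lysine, and DNA-binding proteins such as Pho bring the complexes to Polycomb response elements in the fly. In fly embryos they hold the Hox genes off outside their own segments, and several Polycomb group genes are themselves bound by Polycomb proteins.

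Among the members, ph-p, ph-d, Psc and E(z) had a conservative peak, and Su(z)2, Pc, Sce, pho, Scm and Asx had none. This was 4 of 10 members, against 15.8% of the 13741 protein-coding genes that could receive a peak. In the thresholded lists, which keep peaks with a scaled score of at least 830 for the irreproducible discovery rate (IDR), replicate 1 had a peak at 5 members against 14.8% of all genes. Replicate 2 had one at 4 members against 12.2%, and replicate 3 at 4 members against 9.64%. The same 4 members were called in each of these lists, and the fifth of replicate 1 was pho. The thresholded lists of the other pairs of replicates had a peak at 4 members for replicates 2 and 3, against 13.4% of all genes. For replicates 1 and 3 it was 5 members, pho included, against 14.5%. Which replicates made each pair list was read from the intervals that the lists share, not from a label. The conservative list entered the choice of the members, so nothing is read from the difference from all genes. The strongest conservative peak of a member had a median signal of 1093.9 over the 4 members, against 223.0 over the 2166 genes with a peak.

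**Figure D1:**
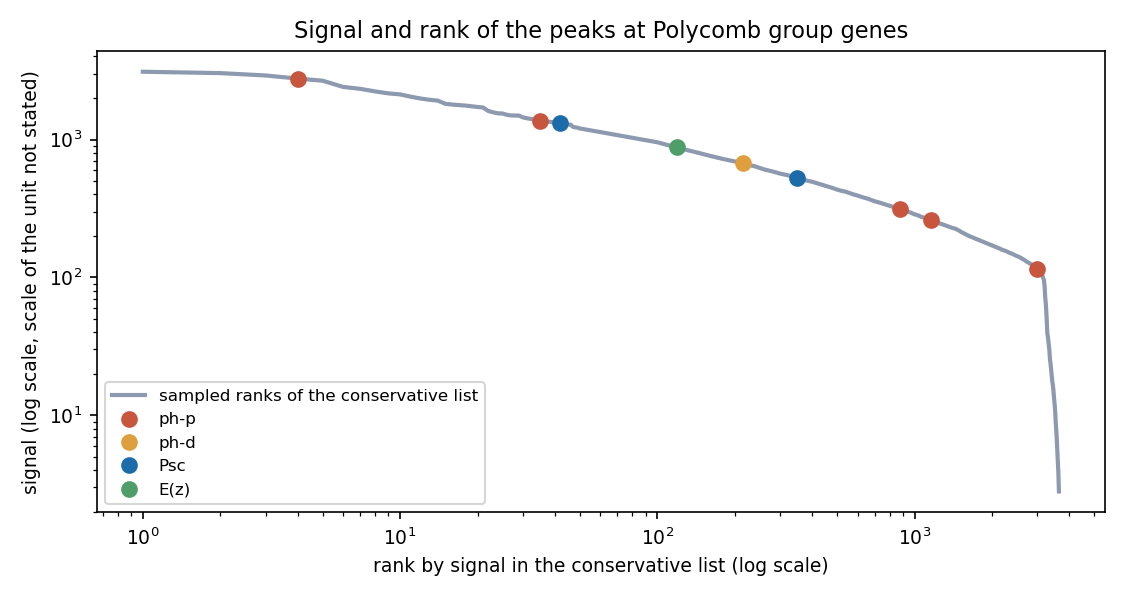
Signal (vertical axis, log scale, unit not stated) against rank (horizontal axis, log scale) in the conservative list, with the 9 peaks at Polycomb group genes as coloured points on the line of the list. The points run from rank 4 to rank 2990, and 4 of the 9 lie within the strongest 182 peaks.

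The gene ph-p (polyhomeotic proximal, FBgn0004861, X 2126210 to 2138371, minus strand) encodes a PRC1 subunit whose sterile alpha motif forms polymers. It had 5 conservative peaks, with summits spread over 3510 bp around its 3 start sites. The strongest, at X 2137175 to 2137540, had a signal of 2767.3 and rank 4 of 3650. Its summit at 2137341 lay 486 bp upstream of the TSS at 2136855 and 1030 bp downstream of the TSS at 2138371, and so in an intron of the longest transcripts. The signal of this peak was 1254.4 in replicate 1, 1078.0 in replicate 2 and 579.9 in replicate 3, which was rank 4, 5 and 3 of those lists. The percentile was 99.88 ± 0.037 (SD, n = 3 replicates), a peak at the very top of each replicate list. Of the 36-base words in this interval, 95.8% occur once on the 6 chromosome arms of the reference, the only part searched. In the intervals of the other 8 peaks all of them do.

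The second ph-p peak (X 2137713 to 2138073, summit 2137931) stood 590 bp from the first, in a 5′ UTR 440 bp downstream of the TSS at 2138371. It had a conservative signal of 1372.1 and rank 35. Its signal was 573.3 in replicate 1, 562.2 in replicate 2 and 336.7 in replicate 3, a percentile of 98.83 ± 0.178 (SD, n = 3). Both strong peaks thus sat at nearly the same place in all 3 lists.

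The other 3 ph-p peaks were weaker in the conservative list. The peak at X 2135147 to 2135530, 1283 bp downstream of the nearest TSS in an intron, had a conservative signal of 312.4 (rank 880). Its percentile was 68.29 in replicate 1, 70.37 in replicate 2 and 32.99 in replicate 3. The intron peak at X 2134229 to 2134612, 2201 bp downstream, had a conservative signal of 260.6 (rank 1153) and percentiles of 61.66, 52.03 and 29.31 in replicates 1, 2 and 3. For both, the place in the list of replicate 3 was lower than in either other list. By rank the first of these peaks stood at 1015, 722 and 1222 in replicates 1, 2 and 3, and the other at 1227, 1168 and 1289. These lists differ in length, with 3198, 2433 and 1822 peaks, and a percentile depends on how far down its list reaches. Whether list length sets the lower place in replicate 3 was not tested. The longer ranked lists also hold peaks below the threshold. There the first of these peaks had percentiles of 95.91, 95.85 and 94.61 in replicates 1, 2 and 3, and the other 95.05, 93.27 and 94.30.

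The weakest ph-p peak, at X 2136410 to 2136793, lay closest to a start site, 20 bp downstream of the TSS at 2136622. It had a conservative signal of 115.7, rank 2990 and a score of 976, the lowest score among the 9 peaks. Replicate 2 alone held it in its thresholded list, with a signal of 48.1 and rank 2398 of 2433. In the ranked lists it had a score of 79 in replicate 1 and 126 in replicate 3, both under 830. This peak was the 1 of the 9 that was not shared with all 3 replicates.

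The gene ph-d (polyhomeotic distal, FBgn0004860, X 2115727 to 2123286, minus strand) is the tandem copy of ph-p and encodes a related PRC1 subunit. The genes lie 2924 bp apart. Its 1 conservative peak, at X 2123972 to 2124268, had a signal of 672.4 and rank 216. The summit at 2124138 was intergenic, 852 bp upstream of the TSS at 2123286 and 2072 bp from the 3′ end of ph-p. The signal was 312.6 in replicate 1, 223.9 in replicate 2 and 152.3 in replicate 3, at percentiles of 94.93, 88.90 and 87.98. The ph-d peak was thus below both strong ph-p peaks in each list, and above the other ph-p peaks. Replicate 1 also held a weak peak 231 bp downstream of the ph-d TSS, with a signal of 51.9 and rank 2627.

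**Figure D2:**
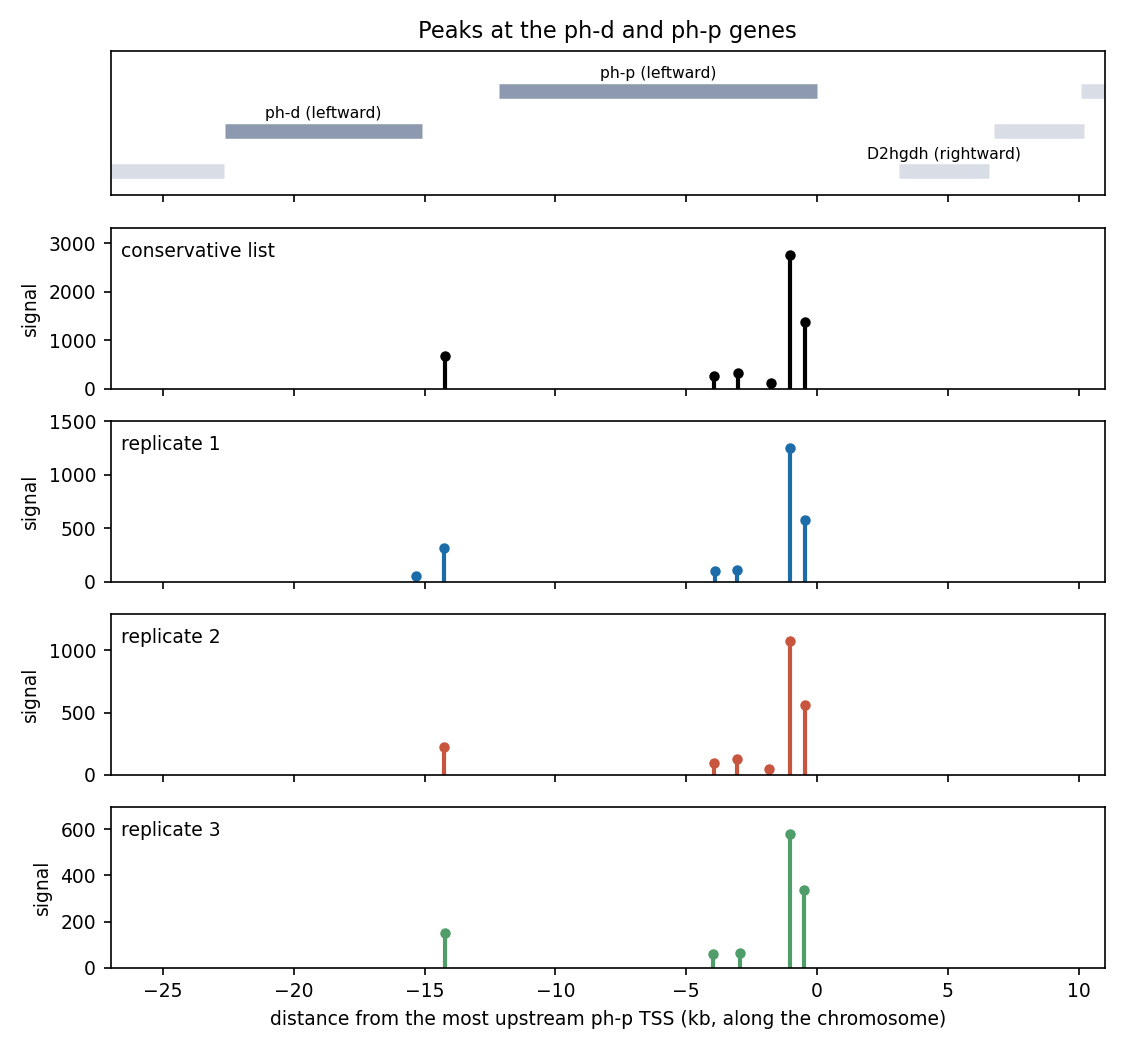
Genes (top panel, members dark, others pale, with their direction for those labelled) and peak signals in the conservative list and the thresholded lists of replicates 1, 2 and 3, against distance in kb from the most upstream ph-p TSS. Each line is a summit, each panel has its own signal scale, and in every panel the tallest line is the strongest ph-p peak, at -1.030 kb in the conservative list, followed by its neighbour at -0.440 kb.

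The sequences around 4 of these summits are shown to let the strong ph-p peak be read beside its weaker neighbours and the ph-d peak. Each is 151 bases of the plus strand centred on the summit, 5′ to 3′, from the RefSeq Release 6 sequence. Capitals mark a match, within 50 bp of the summit, to the forkhead consensus (the words TATTTAC and TATTTAT and TGTTTAC and TGTTTAT, on both strands) or to the Pho core word GCCAT on both strands. They lie at chrX:2137266-2137416 for the strongest ph-p peak, at chrX:2135264-2135414 and chrX:2134346-2134496 for the intron peaks of ph-p and at chrX:2124063-2124213 for ph-d.
ph-p strongest peak: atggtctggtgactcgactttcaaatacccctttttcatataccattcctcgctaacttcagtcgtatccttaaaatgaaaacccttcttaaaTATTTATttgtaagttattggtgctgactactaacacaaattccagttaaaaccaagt
ph-p intron peak with signal 312.4: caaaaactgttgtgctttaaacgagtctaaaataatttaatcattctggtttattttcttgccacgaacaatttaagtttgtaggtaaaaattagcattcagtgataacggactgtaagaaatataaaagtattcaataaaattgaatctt
ph-p intron peak with signal 260.6: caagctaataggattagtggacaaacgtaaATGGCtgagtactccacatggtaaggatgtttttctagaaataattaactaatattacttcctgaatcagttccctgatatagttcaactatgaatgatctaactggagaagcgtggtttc
ph-d peak: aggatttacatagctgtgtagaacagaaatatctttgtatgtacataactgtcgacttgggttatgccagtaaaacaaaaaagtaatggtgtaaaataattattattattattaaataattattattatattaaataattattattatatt
The strongest ph-p peak held 1 forkhead word, which starts 18 bp to the right of the summit. The intron peak with a signal of 260.6 held the Pho core word on the minus strand, 45 bp to the left of its summit. Neither kind of word was in the windows of the other intron peak and of ph-d. The second ph-p peak, with a signal of 1372.1 and not shown, also held neither. Among these windows a forkhead word was therefore not a mark of every strong peak.

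The gene Psc (Posterior sex combs, FBgn0005624, 2R 12965997 to 12980994, minus strand) encodes a PRC1 subunit that compacts nucleosome arrays. It had 2 conservative peaks, 9608 bp apart, neither at a promoter. The stronger, at 2R 12985061 to 12985381, had a signal of 1311.5 and rank 42, with its summit 4203 bp upstream of the most upstream TSS in intergenic sequence and 170 bp before the start of the noncoding gene lncRNA:CR44339. Its signal was 509.0 in replicate 1, 512.0 in replicate 2 and 303.6 in replicate 3, a percentile of 98.40 ± 0.284 (SD, n = 3). In place within the lists this peak was close to the second ph-p peak.

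The other Psc peak (2R 12975495 to 12975681, summit 12975589) lay in an intron, 5069 bp downstream of the TSS at 12980658. It was the farthest from a TSS of the 9 and the narrowest, at 187 bp against a median of 384 bp over the list. It had a conservative signal of 528.9 and rank 348. The signal was 199.3, 197.8 and 145.1 in replicates 1, 2 and 3, a percentile of 86.75 ± 0.990 (SD, n = 3). This percentile varied little between replicates. By rank the peak stood at 390, 344 and 247 in replicates 1, 2 and 3, in lists of 3198, 2433 and 1822 peaks.

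Su(z)2 (Suppressor of zeste 2, FBgn0265623, 2R 12996501 to 13007911, plus strand) is the paralog and neighbour of Psc, and its product can take the place of Psc in PRC1. No conservative peak was assigned to it. A peak just outside the 10 kb limit, at 2R 13008172 to 13008555, lay 11241 bp from its nearest TSS, past the 3′ end, with a signal of 109.7 and rank 3063. The thresholded replicate lists did not hold it, and its scores in the ranked lists were 615, 211 and 21 in replicates 1, 2 and 3. Between Psc and Su(z)2, peaks at 4848 bp (signal 71.1) and 5078 bp (signal 38.5) from the Su(z)2 TSS were nearest to another gene, CG33798, and were shared with no thresholded replicate list. Across the Psc and Su(z)2 interval the strong peaks were therefore those assigned to Psc, in the conservative list and in each replicate list.

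**Figure D3:**
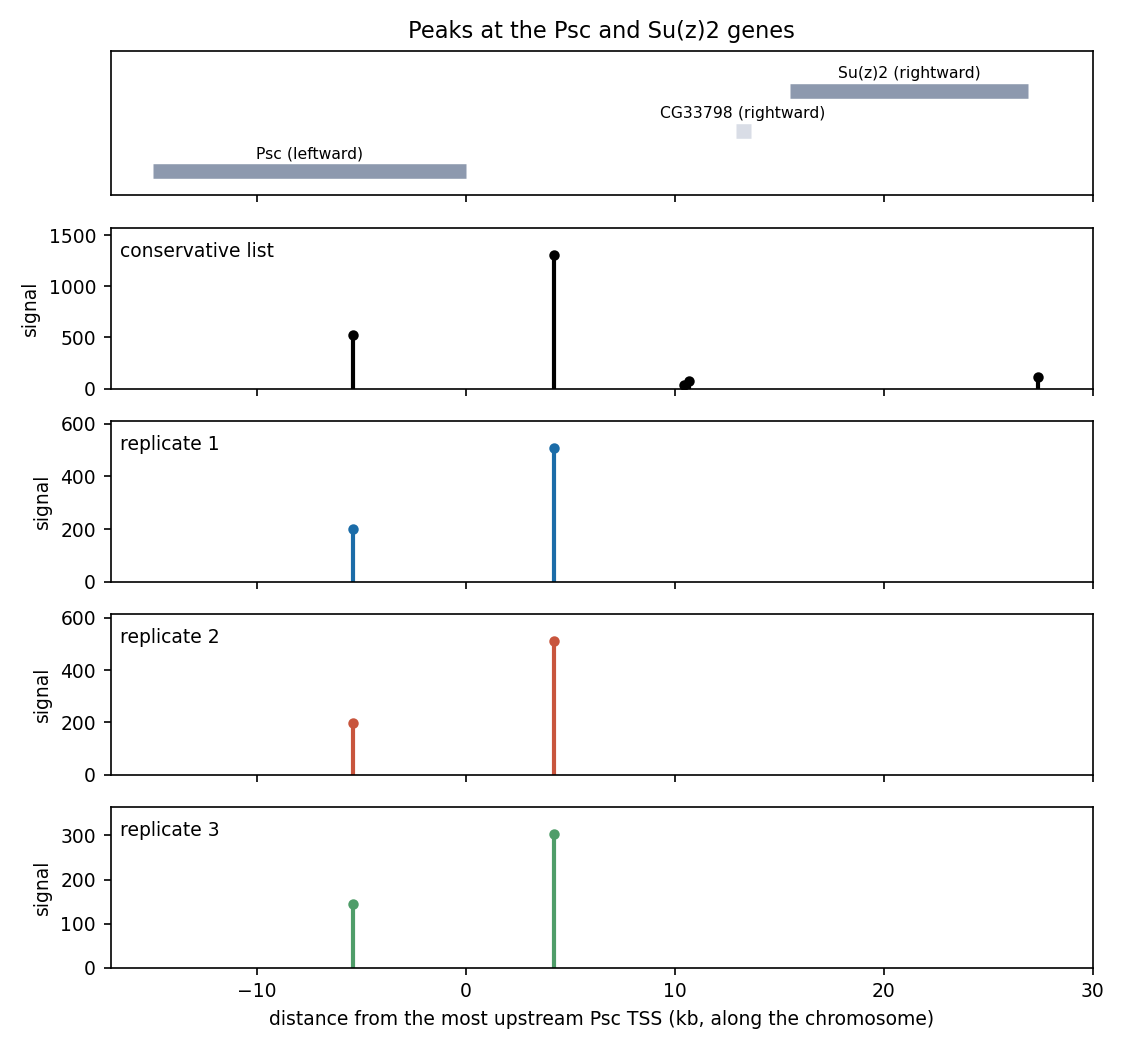
Genes (top panel, members dark) and peak signals in the conservative list and the thresholded lists of replicates 1, 2 and 3, against distance in kb from the most upstream Psc TSS. The same 2 summits, at -5.405 kb and 4.203 kb in the conservative list, appear within 250 bp in every panel, while the 3 weak peaks nearer to Su(z)2 appear in the conservative panel only.

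The other PRC1 members had no peak in any thresholded list. Pc (Polycomb, FBgn0003042, 3L 21306138 to 21318020, minus strand) encodes the chromodomain subunit that binds methylated H3. Its strongest ranked peak had a signal of 17.2 in replicate 1, 26.4 in replicate 2 and 19.1 in replicate 3, with scores of 33, 36 and 21. The conservative peak nearest to its TSS was 13429 bp away, with a signal of 783.3, and lay 67 bp from the TSS of CG11309. Sce (Sex combs extra, FBgn0003330, 3R 27680431 to 27682029, minus strand) encodes the ubiquitin ligase of PRC1. Its strongest ranked peak had a signal of 15.7 in replicate 1 and 19.3 in replicate 3, with scores of 33 and 21, and replicate 2 had none. The nearest conservative peak was 24968 bp from Sce. The peaks of these genes thus stayed far below the score limit.

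E(z) (Enhancer of zeste, FBgn0000629, 3L 10634575 to 10638130, minus strand) encodes the methyltransferase of PRC2. Its 1 conservative peak, at 3L 10637857 to 10638175, had a signal of 876.4 and rank 119. The summit at 10638045 lay in the 5′ UTR, 85 bp downstream of the TSS at 10638130. The divergent gene Cnep1r2 starts 16 bp from that TSS and 101 bp from the summit, so the peak stands at a promoter that both genes share. Its signal was 338.6 in replicate 1, 333.5 in replicate 2 and 215.3 in replicate 3, a percentile of 95.12 ± 0.691 (SD, n = 3). It was above the ph-d peak and below both strong ph-p peaks in each replicate list.

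The E(z) window held 4 forkhead words on the minus strand within 50 bp of the summit, starting at -42, -31, -20 and 38 bp from it. Of the 3644 conservative peaks on the chromosome arms, 5 had at least 4 such matches (0.137%) and 176 had at least 2. The 3 matches on the left side are shown because they repeat at a step of 11 bp, at chr3L:10638003-10638031, plus strand, RefSeq Release 6, with capitals marking the matches.
E(z) repeated site: ATAAATAtaatATAAATAatacATAAATA
The window was also the richest in A and T among the 9, at 81.2% of 101 bases, against 73.3% for the median of the 9.

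The gene pho (pleiohomeotic, FBgn0002521, chromosome 4 1172469 to 1181628, minus strand) encodes a zinc-finger protein that binds Polycomb response elements. It had no conservative peak, and the nearest was 68312 bp away. Replicate 1 held a peak 176 bp upstream of its TSS in the thresholded list, with a signal of 43.2, a score of 983 and rank 3034 of 3198. The ranked lists held peaks at nearly the same position in the other replicates, 150 bp upstream with a signal of 37.6 and a score of 118 in replicate 2, and 163 bp upstream with a signal of 32.1 and a score of 44 in replicate 3. Chromosome 4 held 9 conservative peaks, the strongest with a signal of 513.9.

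Scm (Sex comb on midleg, FBgn0003334, 3R 9633359 to 9637611, minus strand) encodes a partner of PRC1 and PRC2 with a sterile alpha motif. Its strongest ranked peak had a signal of 20.9 in replicate 1 and 29.4 in replicate 2, and replicate 3 had none. Asx (Additional sex combs, FBgn0261823, 2R 14503958 to 14512493, plus strand) encodes a subunit of the complex that removes ubiquitin from H2A. Replicate 1 alone held a ranked peak at Asx, with a signal of 21.1 and a score of 219. The nearest conservative peak was 19013 bp from the TSS of Scm and 19248 bp from that of Asx.

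In the ranked lists 10 members had a peak in replicate 1, 7 in replicate 2 and 8 in replicate 3, against 60.8%, 51.7% and 59.0% of all genes. The ranked lists reach so far down that most genes have a peak in them. Over the 6 members without a conservative peak, the percentile of the strongest ranked peak had a median of 56.9 in replicate 1 (6 genes, 18.3 to 86.2), against 67.1 over all genes with a ranked peak. It was 60.9 in replicate 2 (3 genes, 48.5 to 75.6), against 63.8 over all genes, and 37.3 in replicate 3 (4 genes, 16.5 to 84.7), against 67.7. The 4 bound members and the other 6 therefore formed separate groups in these lists, with pho the highest of the 6 in each replicate. That separation follows from the choice of groups by the conservative list, and it is a description.

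**Figure D4:**
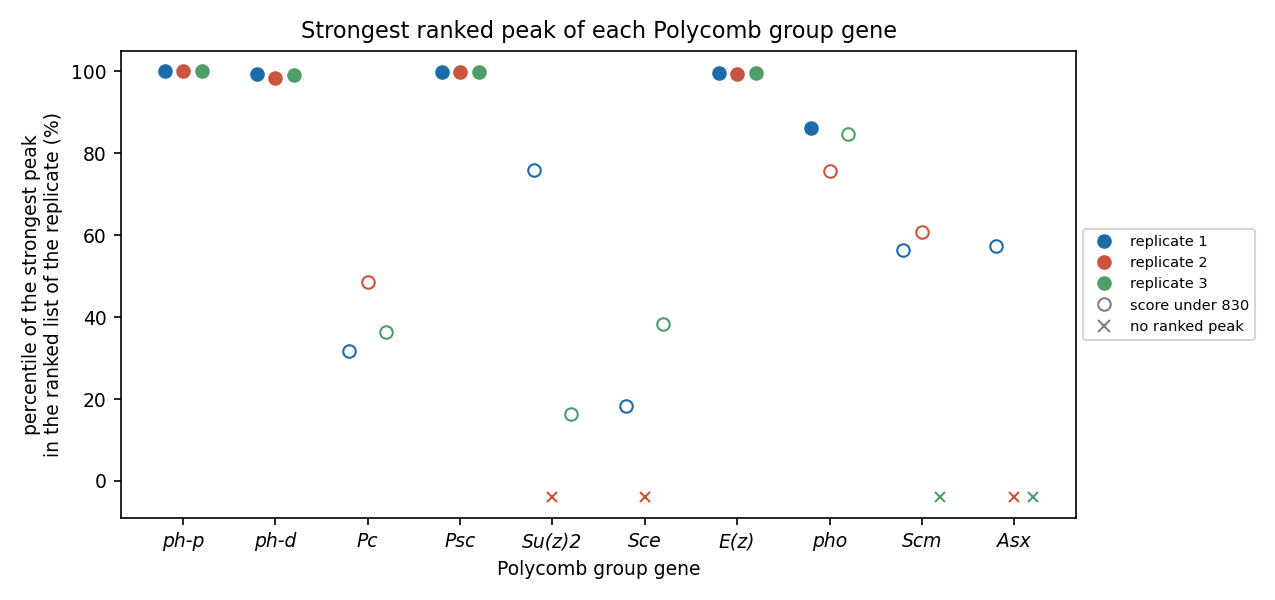
Percentile of the strongest peak of each of the 10 Polycomb group genes (horizontal axis) in the ranked list of each replicate (vertical axis, percent), with filled circles for a score of at least 830, open circles for lower scores and crosses for no ranked peak. The points of ph-p, ph-d, Psc and E(z) lie between 98.45 and 99.99, and those of the other 6 genes at 86.16 or below.

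Replicate 3 gave no interval to the ranked pair list that holds every conservative peak, whose intervals were identical to those of the ranked lists for 85.3% of the first set in replicate 1 and 87.6% of the second set in replicate 2. The thresholded lists of replicates 1 and 3 and of replicates 2 and 3 held the same interval and summit for 79.5% and 73.3% of all conservative peaks. Replicate 3 may therefore have entered the intervals and signals of the conservative list, so sharing with it is not an independent check. Sharing with replicates 1 and 2 is not one either, because most intervals of that ranked pair list were those of their ranked lists. A summit within 250 bp in the thresholded list of replicate 3 was found for 8 of 9 member peaks, against 50.1% of all conservative peaks. For all 3 replicates the counts were 8 of 9 member peaks and 43.6% of all. Among the 1152 conservative peaks at least as strong as the weakest of those 8, 95.1% were shared with all 3, so sharing was the rule for peaks of this strength. The strongest 182 peaks of the list were all shared with all 3 replicates.

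The 9 peaks differed in where they lay. Within 500 bp of a TSS were 4 of 9 member peaks, against 40.6% of all conservative peaks. The count was 2 of 9 with the outermost start of each gene only, against 32.5%, and 2 of 9 within 250 bp of a TSS, against 31.0%. Introns held 4 of 9 summits against 49.0%, 5′ UTRs 3 of 9 against 6.31%, and sequence between genes 2 of 9 against 39.9%. Coding exons held 0 of 9, against 0.604%. The distance to a TSS entered the choice of the peaks, and these counts are small.

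Within 50 bp of the summit the forkhead consensus was found in 2 of 9 member peaks, the strongest ph-p peak and E(z), against 23.6% of all conservative peaks. Within 100 bp it was in 6 of 9, against 39.1%, and over the whole interval in 8 of 9, against 51.6%, so the count depended on the window. The forkhead core word TGTTTAC alone was in 0 of 9, against 2.44%. The Pho core word GCCAT was in 1 of 9, against 13.2%. The GAGA factor word GAGAG was in 0 of 9 against 9.17%, the DREF word TATCGATA in 0 of 9 against 0.933%, and a run of 6 A (AAAAAA) in 2 of 9, ph-d and the stronger Psc peak, against 28.2%. All words were searched on both strands. TGTTTAC is also 1 of the words of the forkhead consensus, and a match or its lack describes only the letters in these windows. The member windows held a median of 73.3% A and T (48.5 to 81.2), against 69.3% over all peaks, and the lowest value was that of the weakest ph-p peak at its TSS.

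Several peaks at 1 gene were common: 648 genes had 2 or more conservative peaks, 45 had 5 or more as ph-p did, and the most was 9. Windows no wider than the 3510 bp of ph-p that held at least 5 summits were found at 5 places in the list, including ph-p itself. The stretch of sequence nearest to a gene is the only place where a summit can be given to that gene. Within 10 kb it was 9976 bp for ph-p, 14934 bp for ph-d, 16788 bp for Psc and 3528 bp for E(z), against a median of 4323 bp over all genes. For the members without a peak it was 3256 bp for Scm, 3336 bp for Sce, 5834 bp for Asx, 7038 bp for Pc, 11805 bp for pho and 11924 bp for Su(z)2. Whether the length of this stretch bears on which members had a peak was not tested.

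The genes outside the group whose strongest peak came closest to ph-p in its 3 replicate percentiles were px, cbt and CG14100. The measure was the Euclidean distance over the 3 replicates, and ranks so near the top leave little room between genes. The peak at px (plexus, a wing vein gene, 2R 22514125 to 22514492) had rank 5, 6 and 2 in replicates 1, 2 and 3. That of cbt (cabut, a zinc-finger gene, 2L 480904 to 481280) had rank 3, 3 and 5, and that of CG14100 (3L 19590439 to 19590794) had rank 2, 2 and 1. The conservative signals were 2670.0 for px, 2913.5 for cbt and 3030.8 for CG14100, beside 2767.3 for ph-p.

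Other genes of Polycomb regulation were counted from 3 lists. These lists were chosen with earlier results of these data known, so nothing is read from their differences from all genes. The stretch of sequence nearest to their genes is not given here. Of 17 other Polycomb group genes found in the annotation, 4 had a conservative peak (23.5%, against 15.8% of all genes), with a median strongest signal of 227.9 against 223.0 over all genes with a peak. They were Kdm2, a histone demethylase gene (signal 528.1, intron), Sfmbt, a partner of Pho (228.2, 125 bp from its TSS), Su(z)12, a PRC2 subunit (227.6, 51 bp from its TSS) and jing, an accessory PRC2 subunit (167.4). The peak of E(z) was stronger than each of these 4 in the conservative list. In the thresholded lists of replicates 1, 2 and 3, genes of this list with a peak numbered 3, 4 and 2 of 17, against 14.8%, 12.2% and 9.64% of all genes. The PRC2 genes esc, escl, Pcl and Jarid2 had none.

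Of 9 genes of factors that bind Polycomb response elements, 6 had a conservative peak (66.7%, against 15.8% of all genes), with a median strongest signal of 394.5. The strongest were at Adf1 (2160.4), at Trl, which encodes the GAGA factor (1493.2, intron), and at grh, the grainy head gene (581.5). In the thresholded lists of replicates 1, 2 and 3 these genes numbered 5, 5 and 6 of 9, against 14.8%, 12.2% and 9.64% of all genes. Of 24 Trithorax group genes, which keep genes active and oppose Polycomb silencing, 6 had a conservative peak (25.0%, against 15.8% of all genes), with a median of 418.5. The strongest were at brm, the ATPase of the Brahma remodelling complex (1398.1, 133 bp from its TSS), at trx, a histone methyltransferase gene (676.1, intron), and at tna (587.5). In the same 3 replicate lists these genes numbered 5, 6 and 5 of 24, against the same shares of all genes. Peaks shared with all 3 replicates were found at 4 of the 10 members and 2 of the 17 other Polycomb group genes. They were also found at 5 of the 9 response element factors and 5 of the 24 Trithorax group genes. Over all 13741 genes, with or without a peak, the share was 8.17%.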

How the data were processed

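Binding of croc-eGFP was measured by ChIP-seq in 3 biological replicates of 1 group. The deposited files are peak lists on dm6 made by IDR, per the files deposited with the samples: a ranked and a thresholded list per replicate, and lists of the whole series. Each deposited score is a scaled IDR score (at most 1000, lowest 830 in the thresholded lists), and each deposited signal comes from the peak caller, on a scale that is not stated. The aligner and peak caller were not given in the sources used here. No read counts were used, so the depth is unknown, and no interval or floor is given.

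Summits were assigned to the nearest protein-coding TSS of the Ensembl BDGP6.54 annotation (release 115) within 10 kb, on the 6 arms that hold 3644 of the 3650 conservative peaks. Summits within 250 bp counted as shared and within 500 bp of a TSS as promoter. Motif words were searched within 50 bp. The steps were run in python 3.11.15 with numpy 2.4.6, pandas 2.3.3 and matplotlib 3.10.9 and tested on simulated data. Sequences are from RefSeq Release 6. The members and lists were chosen with earlier results of these data known, and no significance test was made. Named genes were all members with their peaks or nearest peaks, the 3 genes most like ph-p, the 3 strongest of each list, and genes at a named peak. jing and the PRC2 genes without a peak were named with their values known. Alternatives tried were distance limits, TSS definitions, sharing rules, motif windows and lists, leaving out each replicate, and, added after seeing the data, the lists of the other replicate pairs. Of the 18 other Polycomb group symbols, calypso was not matched and not analysed here.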

Additional observations from a re-analysis of the deposited data

How the results depend on the processing

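Of 77 alternative values for 6 results, 38 equalled the reported value, 32 differed from it by at most 1.5 times (for the percentile, by at most 1 SD between replicates) and 7 moved further. The members with a peak numbered 4 to 5, their peaks 8 to 11 and those shared with all 3 replicates 7 to 9 under every alternative run. Member peaks at promoters numbered 2 to 6, against 4 as reported. The count was 2 with gene starts only, 2 within 250 bp and 6 in the thresholded list of replicates 1 and 3. The percentile of the strongest ph-p peak was 99.99 in the ranked lists and 99.92 in the conservative list, against 99.88. The forkhead consensus was in 6 of 9 member peaks within 100 bp of the summit and in 8 of 9 over the whole interval, and in 0 for the strict core word. Without any 1 replicate the counts were 4 members, 8 peaks, 8 shared, 3 at promoters and 2 with the consensus, and the percentile was 99.86 to 99.90. No paired analysis was possible because the 3 samples form 1 group. The values without 1 replicate keep the conservative peaks shared with both other replicates, and the conservative list was not remade. Each of these runs returns the same 8 peaks that all 3 replicates share. Their counts thus follow from the sharing already reported and are not a separate check, though they are among the 77. Added after seeing the data, the thresholded list of replicates 2 and 3 gave 4 members and 8 peaks, and that of replicates 1 and 3 gave 5 members and 11 peaks, with 8 shared with all 3 replicates in each.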

Other observations

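The other windows with at least 5 summits in the span of the ph-p peaks lay on 2L (first to last summit 4997650 to 5001150, 5296724 to 5299421 and 7293670 to 7296303) and on 3L (9033026 to 9034444). The other 3 thresholded lists of the whole series each held the same interval for 8 of the 9 member peaks, against 79.5%, 73.3% and 80.8% of all conservative peaks, and the peak they lacked was the weakest at ph-p. Kdm2, like ph-p, had 5 conservative peaks, with the strongest 4289 bp from a TSS.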
